A study of Mus musculus with 12 samples.

Results

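mmu-miR-103 and mmu-miR-107 are a pair of mouse microRNAs (miRNAs, short RNAs that pair with messenger RNAs through their seed, bases 2 to 8, and lower protein output) whose mature forms are nearly identical. They were chosen by name, as the 2 array entries that carry these names, out of 650 miRNA names on the array, of which 611 were mouse names. Both belong to the 145 mouse miRNAs that were tested, meaning that in 1 group or more both arrays read them well above background. Their genes lie inside genes for pantothenate kinases, the enzymes that start the synthesis of coenzyme A, and a miRNA in an intron is usually cut from the transcript of its host. Both miRNAs are widely expressed and are known for targets in lipid and insulin signalling and in the cell cycle, and for repressing Dicer, the enzyme that makes mature miRNAs.

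The study used mouse embryonic fibroblasts (MEFs) of C57BL/6 background, either ATF4WT (wild type) or ATF4KO (lacking ATF4, a transcription factor that is made in larger amounts when the endoplasmic reticulum is under stress). Cells were left untreated or were given 2 ug/mL tunicamycin, which blocks N-linked glycosylation and so causes that stress, for 12 or 24 hours. The 6 groups are wild type untreated, wild type 12 h, wild type 24 h, knockout untreated, knockout 12 h and knockout 24 h, each with 2 arrays from independent experiments. The labels do not say how many embryos or lines of each genotype were used, and both genotypes grew in the same medium. The stated aim was to find miRNAs that respond to 12 h of tunicamycin in a way that depends on ATF4.

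The mature sequences are shown first because they decide how far the probes could tell the pair apart. Both come from RefSeq, are 23 bases long and match at 22 of 23 positions. They differ by G22C, counted from 1 at the 5′ end (miR-103 first), and capitals mark the seed, which is the same in both.
mmu-miR-103: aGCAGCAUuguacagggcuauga
mmu-miR-107: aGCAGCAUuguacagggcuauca
The share of either signal that comes from the other miRNA was not tested, so the values of the pair are given as those of their probes.

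miR-103 has 2 genes and miR-107 has 1, and their hairpins are shown with the mature arm in capitals (RefSeq, build GRCm38.p6). Mir103-1 lies at chr11:35782396-35782481 on the plus strand, inside Pank3, whose start is 12901 bases upstream. Mir103-2 lies at chr2:131288052-131288137 on the plus strand, inside Pank2, 26044 bases from its start. Mir107 lies at chr19:34820687-34820773 on the minus strand, inside Pank1, 62650 bases from its start.
Mir103-1: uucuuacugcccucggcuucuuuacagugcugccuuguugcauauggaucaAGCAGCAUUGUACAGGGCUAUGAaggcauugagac
Mir103-2: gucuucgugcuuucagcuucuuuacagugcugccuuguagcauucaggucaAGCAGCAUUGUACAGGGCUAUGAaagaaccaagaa
Mir107: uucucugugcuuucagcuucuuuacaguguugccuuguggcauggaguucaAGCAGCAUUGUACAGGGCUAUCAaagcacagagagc
Each miRNA gene is on the strand of its host. The Mir103-1 and Mir103-2 hairpins are identical at 69 of 86 positions and hold the same mature sequence, so the miR-103 signal is the sum of both genes and cannot be divided between Pank3 and Pank2. Only the arm shown in capitals had a probe.

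Arrays differed in overall brightness. Levels are given as log2 scaled signal, which is the summed processed signal of a miRNA's probes divided by a reference value of that array, the 75th percentile of the 82 miRNAs that every array detected (well above background on all 12). That percentile ran from 204 on knockout 24 h replicate 1 to 791 on knockout untreated replicate 2. The array of knockout 24 h replicate 1 also had the fewest miRNAs well above background, 92 against as many as 164, and it is left out below wherever a result rests on it. All 4 untreated arrays were on 1 slide and all 8 tunicamycin arrays on the other, so slide and treatment cannot be told apart, and within both slides each genotype had a row of its own, so row and genotype cannot be told apart either. Of 9 mesenchymal or fibroblast marker miRNAs, 6 to 8 were well above background on each array, while 0 of 6 epithelial, 0 of 5 blood and 0 of 3 neural markers were. Endothelial (2 listed), muscle (4 listed) and pluripotency (7 listed) markers reached at most 1 each on any array. The array holds miRNA probes, so the loss of Atf4 itself was not checked. In bulk RNA a lower level from fewer expressing cells and one from less RNA per cell cannot be told apart.

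Both miRNAs were well above background on all 12 arrays. Before scaling, miR-103 gave processed signals of 158 and 152 in the untreated wild type, 78.5 and 100 at 12 h and 66.5 and 67.3 at 24 h (replicates 1 and 2). In the knockout its processed signals were 157 and 173 untreated, 106.6 and 96.1 at 12 h, and 51.6 and 101 at 24 h. In both genotypes every tunicamycin array was dimmer for miR-103 than every untreated array before scaling. For miR-107 the processed signals were 153 and 153, 69.7 and 84.5, and 56.2 and 58.3 in the wild type, in the same order. In the knockout they were 124 and 146, then 98.3 and 81.1, then 42.5 and 93.3. Again all 8 tunicamycin arrays lay below all 4 untreated arrays before scaling.

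After scaling the untreated wild type stood above the other groups. miR-103 stood at a log2 scaled signal of −1.87 and −1.87 in the untreated wild type, −2.46 and −2.50 at 12 h and −2.12 and −2.40 at 24 h. In the knockout its log2 scaled signal was −2.18 and −2.19 untreated, −2.27 and −2.12 at 12 h, and −1.98 and −2.49 at 24 h. The untreated wild type was thus above all 10 other arrays for miR-103, and the knockout groups overlapped one another. The log2 scaled signal of miR-107 was −1.91 and −1.87 in the untreated wild type, −2.63 and −2.75 at 12 h and −2.36 and −2.60 at 24 h. The knockout values of miR-107 were −2.52 and −2.44 untreated, −2.39 and −2.37 at 12 h, and −2.26 and −2.60 at 24 h. Here too the untreated wild type was above all 10 other arrays. Over the 145 tested miRNAs, the median differences from it were −0.32 (wild type 12 h), −0.17 (wild type 24 h) and −0.49 (knockout untreated). How many of the 145 had groups of arrays that did not overlap is not given, so such separations, here and below, are descriptions only.

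**Figure D1:**
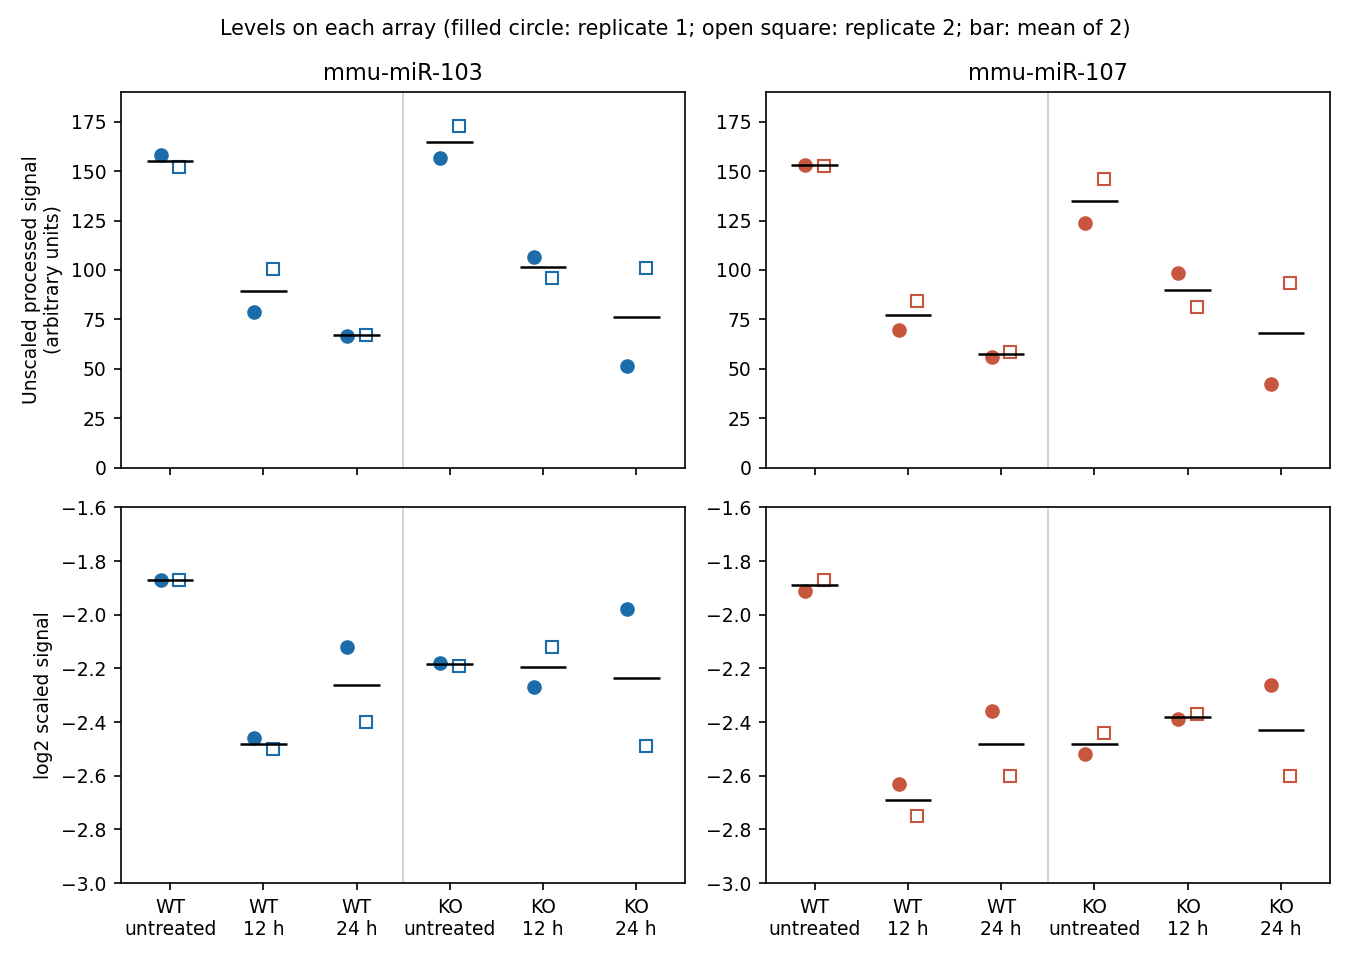
Signal of mmu-miR-103 (left) and mmu-miR-107 (right) on each of the 12 arrays, by genotype and hours of tunicamycin; the upper row shows unscaled processed signal and the lower row log2 scaled signal. Circles are replicate 1, squares replicate 2 and bars the mean of 2 arrays. Unscaled signal is lower on tunicamycin arrays in both genotypes, whereas after scaling the untreated wild type is above the other 10 arrays for both miRNAs.

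Ordered by mean log2 scaled signal, miR-103 ran from the untreated wild type through knockout untreated, knockout 12 h, knockout 24 h and wild type 24 h to wild type 12 h. Of the 5 neighbouring steps, the first (0.32) and the last (0.23) separated groups whose arrays did not overlap, and the 3 between them did not exceed 0.04. miR-107 had the same highest and lowest group, with knockout 12 h, knockout 24 h, knockout untreated and wild type 24 h between them. Its first step was 0.49 and its last 0.21, both with arrays apart, and the 3 middle steps were at most 0.05. The spread was uneven between groups, with an SD of 0.36 for miR-103 and 0.24 for miR-107 in knockout 24 h, 0.20 and 0.17 in wild type 24 h, and at most 0.11 in the other 4 groups. The residual SD over all groups was 0.17 for miR-103 and 0.13 for miR-107, 42nd and 20th from the smallest of 145, against a median of 0.25.

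In wild-type cells both miRNAs fell after 12 h of tunicamycin. Differences were tested with limma over all 12 arrays, with Benjamini-Hochberg adjustment over the 145 tested miRNAs and a threshold of 0.05. miR-103 fell by 0.61 ± 0.17 (SE; 95% interval −1.02 to −0.21, 1.53-fold lower, limma adjusted p = 0.034). miR-107 fell by 0.80 ± 0.14 (95% interval −1.12 to −0.48, 1.75-fold lower, limma adjusted p = 0.00629). Both 12 h arrays were below both untreated arrays for each miRNA. Both of the 2 were called where 31.0% of the tested miRNAs were, and the median difference of all 145 was −0.32. Relative to that median, the difference was −0.29 for miR-103 and −0.49 for miR-107, and they ranked 52nd and 33rd from the lowest of 145. The sign was kept in each of 20 alternative settings and 12 fits that left out 1 array, though not all of these could change it. Settings of floor, filter, weights and block, and omissions of arrays outside the groups compared, left miR-103 at −0.61. The call was kept in 8 of the 20 settings for miR-103 and in 12 for miR-107. For miR-103 it was also lost on leaving out any 1 of the 8 arrays of the untreated and 12 h groups of either genotype (differences −0.63 to −0.59, limma adjusted p over the 12 omissions 0.00535 to 0.143). For miR-107 it was kept in 12 of 12 omissions.

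At 24 h in wild-type cells miR-107 was called lower and miR-103 was not. The difference of miR-107 was −0.59 ± 0.14 (95% interval −0.91 to −0.27, 1.51-fold lower, limma adjusted p = 0.026). That of miR-103 was −0.39 ± 0.17 (95% interval −0.79 to 0.02, limma adjusted p = 0.161). Both 24 h arrays were below both untreated arrays for each. In this comparison 15.2% of tested miRNAs were called, with a median difference of −0.17. The call of miR-107 was lost without wild type untreated replicate 1 (−0.62), wild type untreated replicate 2 (−0.57) or wild type 24 h replicate 2 (−0.47). It was kept in 9 of 20 alternative settings, and normexp background correction on all spots gave the opposite sign (0.41, and 0.44 for miR-103). Normexp with spots of outlying local background left aside gave 0.00, and 0.05 for miR-103. Among the omissions of 1 array, miR-103 was called only when either knockout 24 h array was left out, with the difference still at −0.39. More of all tested miRNAs were called in those fits too. Between 12 and 24 h the wild-type difference (24 h minus 12 h) was 0.23 ± 0.17 for miR-103 and 0.21 ± 0.14 for miR-107, with arrays that did not overlap, and neither passed the test (limma adjusted p = 1 for both). No miRNA was called there by limma (0% of 145, with 5 at an unadjusted p under 0.05). The 12 h and 24 h comparisons share the untreated arrays.

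In the knockout neither miRNA was called at either time. At 12 h the difference from untreated knockout cells was −0.01 ± 0.17 for miR-103 (95% interval −0.42 to 0.40, limma adjusted p = 1). For miR-107 it was 0.10 ± 0.14 (95% interval −0.22 to 0.42, limma adjusted p = 0.8), with both 12 h arrays slightly above both untreated ones. These intervals still hold changes of up to about 0.4 in either direction for miR-103. At 24 h the difference was −0.05 ± 0.17 for miR-103 (95% interval −0.45 to 0.36, limma adjusted p = 0.895) and 0.05 ± 0.14 for miR-107 (95% interval −0.27 to 0.37, limma adjusted p = 0.856). The 24 h arrays lay on either side of the untreated ones, at log2 scaled signals of −1.98 and −2.49 for miR-103 and −2.26 and −2.60 for miR-107. Without knockout 24 h replicate 1, the dimmest array, the 24 h differences were −0.30 and −0.12, and without replicate 2 they were 0.21 and 0.22. Calls were rare among all miRNAs in the knockout, at 0.69% at 12 h (1 of 145) and 2.07% at 24 h (3 of 145). From 12 to 24 h the knockout differences were −0.04 ± 0.17 and −0.05 ± 0.14 (limma adjusted p = 1 and 0.991), and 0% of miRNAs were called by limma, with 10 at an unadjusted p under 0.05. Without knockout 24 h replicate 1 they were −0.29 and −0.22, and without replicate 2 they were 0.22 and 0.12.

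**Figure D2:**
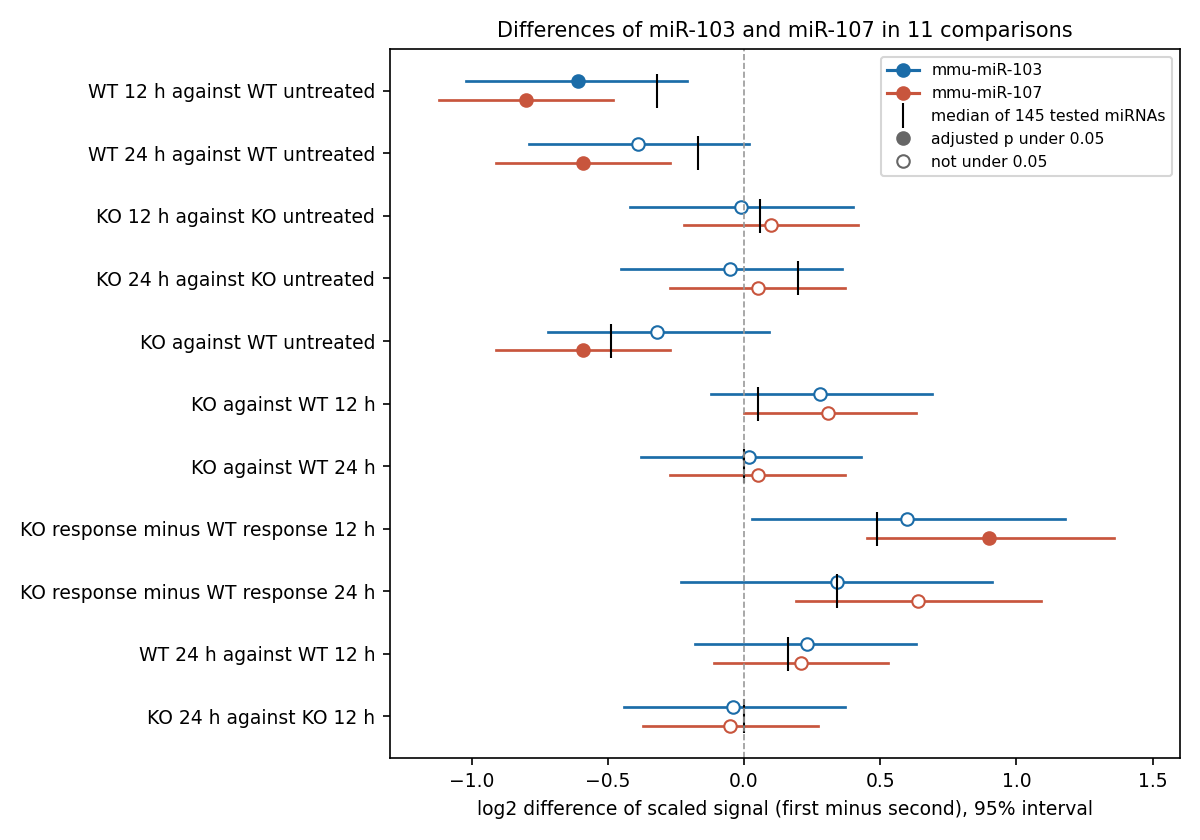
Difference in log2 scaled signal (first named group minus second; horizontal axis) with its 95% interval for mmu-miR-103 (blue) and mmu-miR-107 (red) in the 11 comparisons; filled points have a limma adjusted p under 0.05 and black ticks mark the median of the 145 tested miRNAs. The wild-type 12 h differences lie at −0.61 and −0.80, the knockout 12 h differences at −0.01 and 0.10.

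Without tunicamycin miR-107 was lower in knockout than in wild-type cells. The difference was −0.59 ± 0.14 (95% interval −0.91 to −0.27, 0.665 times the wild-type level, limma adjusted p = 0.019), −0.61 in replicate 1 and −0.57 in replicate 2. For miR-103 it was −0.32 ± 0.17 (95% interval −0.72 to 0.09, limma adjusted p = 0.192), also with the arrays apart. In this comparison 32.4% of tested miRNAs were called and the median was −0.49, so that relative to the median miR-103 was at 0.17 and miR-107 at −0.10. The call of miR-107 was lost on leaving out any 1 of the 4 untreated arrays: −0.61 and −0.57 without wild-type replicates 1 and 2, −0.55 and −0.63 without knockout replicates 1 and 2. It was kept in 11 of 20 alternative settings, and normexp on all spots gave the opposite sign (0.39, and 0.45 for miR-103). Normexp with spots of outlying local background left aside kept the sign of miR-107 (−0.44) but not its call. miR-103 was called without either knockout 24 h array (−0.32 each time), in fits that called more of all tested miRNAs too.

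Under tunicamycin neither miRNA was called between genotypes. At 12 h the knockout minus wild-type difference was 0.28 ± 0.17 for miR-103 (95% interval −0.12 to 0.69, limma adjusted p = 0.33) and 0.31 ± 0.14 for miR-107 (95% interval 0.00 to 0.63, limma adjusted p = 0.153). Both knockout arrays were above both wild-type arrays for each miRNA at 12 h, in a comparison where 24.8% of miRNAs were called. Leaving out either knockout 24 h array made miR-107 called there, with the difference still 0.31, and more of all tested miRNAs were then called too. At 24 h the differences were 0.02 ± 0.17 and 0.05 ± 0.14 (limma adjusted p = 0.998 and 0.952), the arrays overlapped, and 15.2% of miRNAs were called. Without knockout 24 h replicate 1 these were −0.23 and −0.12, and without knockout 24 h replicate 2 they were 0.28 and 0.22. Without wild type 24 h replicate 1 they were 0.16 and 0.17, and without wild type 24 h replicate 2 they were −0.12 and −0.07.

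The comparison the study was designed for is the difference between the genotypes' responses, here the knockout response minus the wild-type response. At 12 h miR-107 passed this test, at 0.90 ± 0.19 (95% interval 0.45 to 1.36, limma adjusted p = 0.018). miR-103 was at 0.60 ± 0.24 (95% interval 0.03 to 1.18, limma adjusted p = 0.136). Of all tested miRNAs 22.8% were called, and their median was 0.49, which leaves 0.41 for miR-107 and 0.11 for miR-103. This difference rests on the untreated arrays too: at 12 h the knockout exceeded the wild type by 0.31 for miR-107, and without treatment it was 0.59 below it. The call of miR-107 was lost without knockout untreated replicate 1 (0.86), wild type untreated replicate 2 (0.88), wild type 12 h replicate 2 (0.84) or knockout 12 h replicate 2 (0.89). It was kept in 12 of 21 alternative settings, and normexp on all spots gave the opposite sign (−0.28). Normexp with spots of outlying local background left aside kept the sign (0.60) but not the call. miR-103 gained a call without either knockout 24 h array (0.60), in fits that called more of all tested miRNAs too. At 24 h the difference of responses was 0.64 ± 0.19 for miR-107 (limma adjusted p = 0.0772) and 0.34 ± 0.24 for miR-103 (limma adjusted p = 0.454), where 8.28% of miRNAs were called. Without knockout 24 h replicate 1 the values were 0.47 and 0.09, and without knockout 24 h replicate 2 they were 0.81 and 0.59. Both miRNAs were called in the latter fit, which called more of all tested miRNAs too.

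How the arrays were scaled decided much of this pattern. With no scaling, miR-103 differed from untreated cells by −0.80 at 12 h and −1.21 at 24 h in the wild type, and by −0.70 and −1.19 in the knockout. For miR-107 the unscaled differences were −0.99 and −1.42 in the wild type, and −0.59 and −1.09 in the knockout. Without scaling the 24 h values of both miRNAs were called in both genotypes, where 63 (wild type) and 55 (knockout) of the 145 were, and the 12 h values in neither, where 36 and 18 were. Also without scaling, the untreated genotype difference was 0.09 for miR-103 and −0.19 for miR-107. The 12 h difference of responses was then 0.10 for miR-103 and 0.40 for miR-107, and neither was called. Scaled to the median, over all mouse miRNAs or by quantiles, 0 of the 36 values of the pair in these 6 comparisons passed the limma threshold, and 0 had an unadjusted p under 0.05. SEs were larger there. For the wild-type 12 h differences of miR-103 and miR-107 they were 0.28 and 0.28, 0.63 and 0.64, and 0.66 and 0.64, in that order. With the main scaling they were 0.17 and 0.14, so a lost call does not by itself show a smaller difference. The wild-type 12 h difference kept its sign under these 3 scalings too, from −0.77 to −0.32 for miR-103 and from −0.97 to −0.51 for miR-107.

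**Figure D3:**
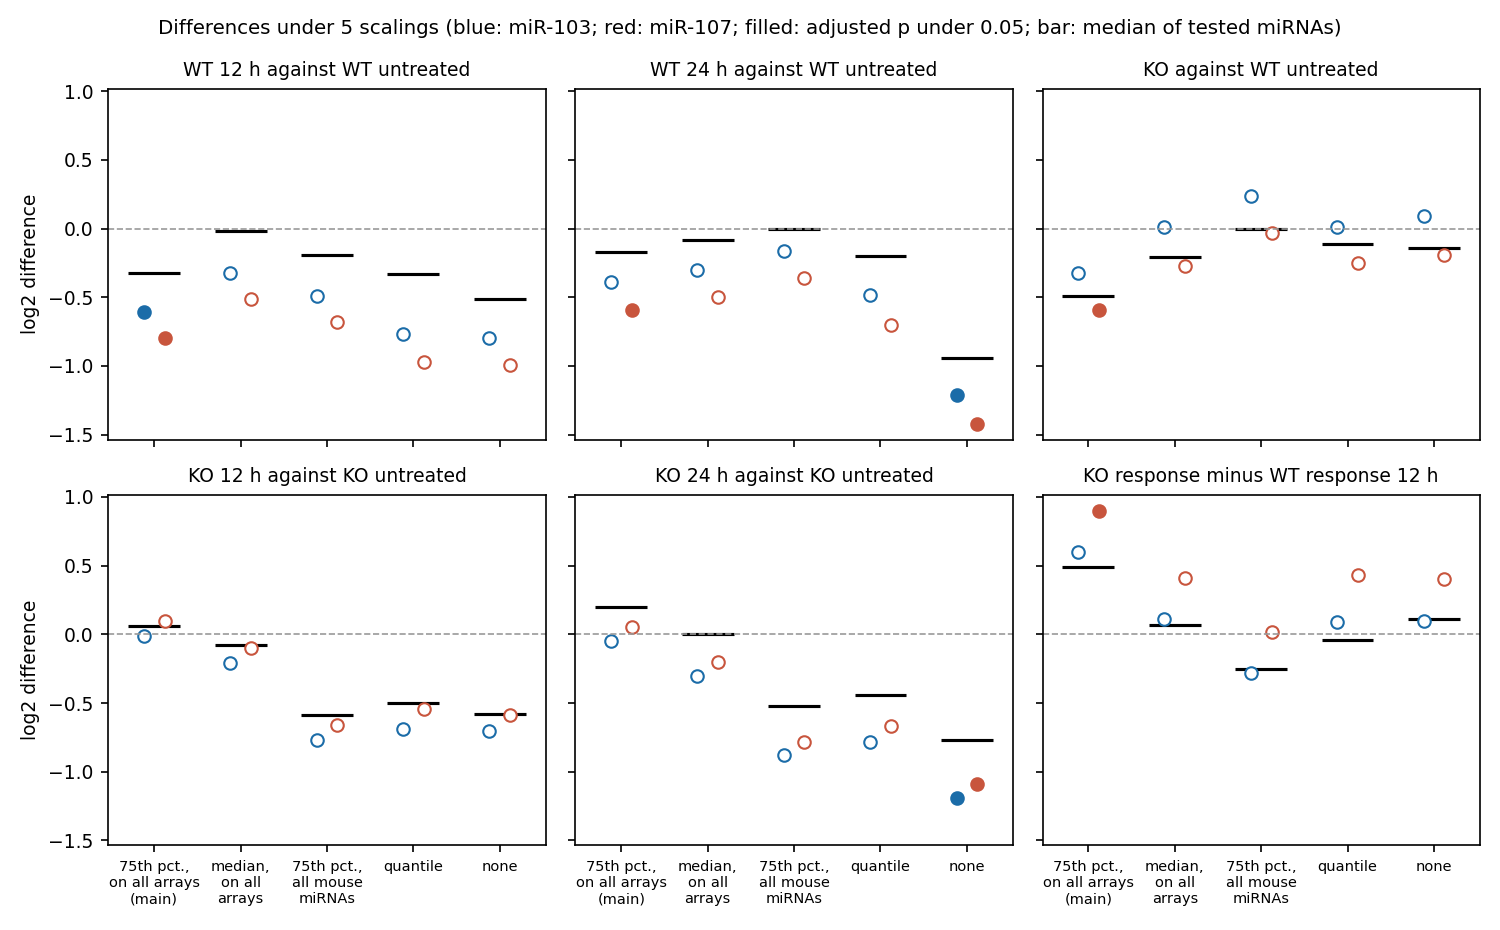
Differences of mmu-miR-103 (blue) and mmu-miR-107 (red) in log2 units (vertical axis) under 5 scalings (horizontal axis) for the 4 tunicamycin responses, the untreated genotype difference and the 12 h difference of responses. Filled points have a limma adjusted p under 0.05 and bars are medians of the tested miRNAs: without scaling the knockout 12 h values are −0.70 and −0.59, against −0.01 and 0.10 with the scaling used for the tests.

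What does not move with a common factor per array is the position of each miRNA among the others. Relative to the median of the 82 always-detected miRNAs, the wild-type 12 h difference was −0.28 for miR-103 and −0.47 for miR-107. The 24 h wild-type values relative to that median were −0.21 and −0.41. In the knockout they were −0.10 and 0.01 at 12 h, and −0.28 and −0.18 at 24 h. By rank from the lowest of these 82, miR-107 was 19th at 12 h and 23rd at 24 h in the wild type, and 43rd and 33rd in the knockout. miR-103 was 30th and 30th in the wild type, and 33rd and 26th in the knockout. For the 12 h difference of responses, the values relative to this median were 0.11 and 0.41, at ranks 43 and 60 of 82.

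Each miRNA was read by a bright and a dim probe, each with 10 spots per array. The brighter probe of miR-103 gave 44.6 to 142 signal units and was well above background on 12 arrays, and the dimmer gave 7.05 to 30.9 and was so on 6. For miR-107 the ranges were 34.2 to 125 on 12 arrays and 8.34 to 30.3 on 7. No spot of either was saturated, and 11 and 8 spots were left out as outliers. Scaled by the same percentile, the brighter and dimmer probes of miR-107 gave −0.63 and −0.41 for the untreated genotype difference, and those of miR-103 gave −0.34 and −0.18. Both probes were well above background on all 4 of these arrays, and their signs were the same. For the wild-type 12 h difference the brighter probes gave −0.81 for miR-107 and −0.59 for miR-103. The dimmer probes gave −0.77 and −0.76, with only 3 of 10 spots well above background on wild type 12 h replicate 2.

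The near-identical pair can also be set against each other within an array, where scaling has no part. The quantity is the log2 signal of miR-103 minus that of miR-107, which is read only for how it varies between arrays, since probes differ in brightness. It was 0.04 and −0.01 in the untreated wild type, 0.17 and 0.25 at 12 h and 0.24 and 0.21 at 24 h. In the knockout it was 0.34 and 0.24 untreated, 0.12 and 0.25 at 12 h, and 0.28 and 0.12 at 24 h. Both untreated wild-type arrays lay below all 10 others, which ranged from 0.12 to 0.34. The group means spanned 0.272, and the pooled SD within groups was 0.07. In the exact one-sided permutation test over all 10395 ways to pair the arrays, the between-group spread had p = 0.106, with 9.62e-05 the smallest p possible. The same exact permutation test gave p = 0.0923 from the brighter probes and p = 0.264 from the dimmer ones. Unequal movement of miR-103 and miR-107 between the groups therefore did not pass this test. It passed with 1 of 6 other measures, normexp with outlying-background spots left aside (span 0.143, exact permutation p = 0.0327), while normexp on all spots gave p = 0.752. Among the 6, Agilent's total gene signal and the deposited value table only repeated the main values (span 0.272, exact permutation p = 0.106). The untreated wild-type arrays were not apart from the others with normexp on all spots (up to 0.03, the others from 0.00) or with the dimmer probes (−0.26 to −0.11, the others −0.66 to 0.08).

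**Figure D4:**
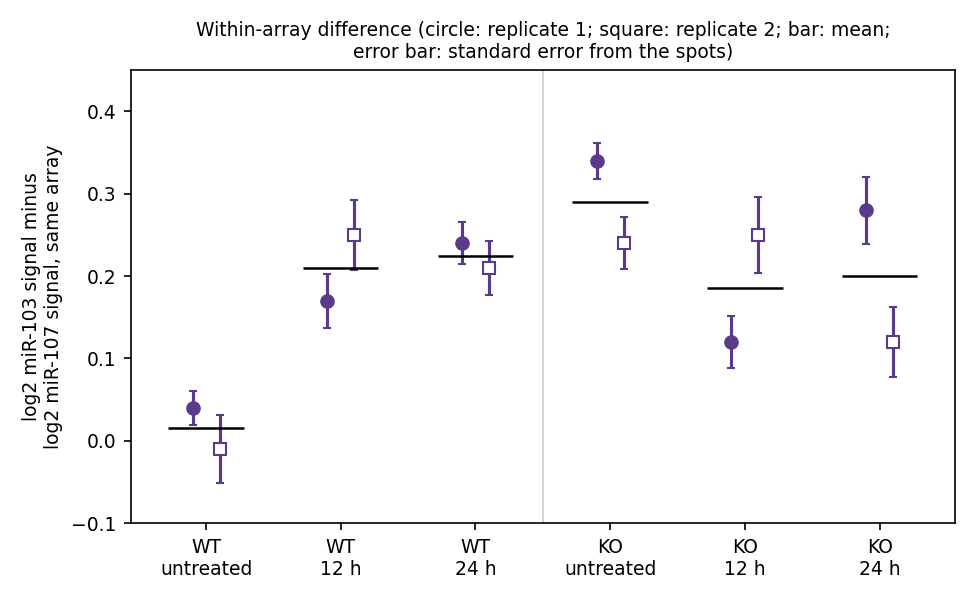
Log2 signal of mmu-miR-103 minus log2 signal of mmu-miR-107 on the same array (vertical axis) by group; circles are replicate 1, squares replicate 2, bars group means, and error bars the standard error from the spots. The untreated wild-type arrays are at 0.04 and −0.01 and the other 10 arrays between 0.12 and 0.34.

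Over the 12 arrays the log2 scaled signals of miR-103 and miR-107 followed each other, with Pearson r = 0.93 and Spearman rho = 0.96, and r = 0.95 and rho = 0.98 over the 8 tunicamycin arrays. These are descriptions, since the arrays share their scaling and the probes share most of their target sequence. Among the 142 other tested miRNAs whose signal varied between arrays, the most alike to miR-103 were miR-652 (r = 0.92), miR-21 (r = 0.91), a miRNA abundant in fibroblasts, and miR-106b (r = 0.90). The median r of those 142 was 0.27. For miR-107 they were miR-106b, miR-21 and miR-467b (r = 0.95 each), against a median of 0.33. miR-106b and miR-21 were thus near the top for both.

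miR-103 and miR-107 are counted in the wider group of miR-15 and miR-107 relatives, which has AGCAGC near the 5′ end. The sequences of 5 other members are shown for the register of the shared motif, with the seed in capitals.
mmu-miR-15a: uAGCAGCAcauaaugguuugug
mmu-miR-15b: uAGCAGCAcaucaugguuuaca
mmu-miR-16: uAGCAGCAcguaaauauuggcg
mmu-miR-322: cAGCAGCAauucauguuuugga
mmu-miR-503: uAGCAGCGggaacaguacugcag
AGCAGC starts at base 1 in miR-103 and miR-107 and at base 2 in these 5, so the seeds are offset by 1 base.

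Of 7 such miRNAs besides the pair, 6 were tested, and the 4 that were well above background on all 12 arrays (miR-15a, miR-15b, miR-16 and miR-322) are described here beside the 82 such miRNAs. miR-195 and miR-497 were so on 2 and 3 arrays; their values are against the floor, and they enter no count or median. At 12 h in the wild type 3 of the 4 were called lower, with a median of −0.88, against 32.9% of the 82 called and a median of −0.34. Under the 4 other scalings the median of the 4 was −1.23 to −0.59, and limma called 3 of them without scaling (19.5% of the 82 called) and 0 under the other 3, where 0 of the 82 were called. miR-322, an X-linked relative of miR-16 known from muscle differentiation, fell by 2.01 ± 0.28 (limma adjusted p = 0.00271). miR-16, which restrains cyclins and BCL2, fell by 0.94 ± 0.12 (limma adjusted p = 0.00213). In the knockout limma called 0 of 4 at 12 h (median 0.08, against 0.09 for the 82) and at 24 h (median −0.21, against 0.23), with 0 at an unadjusted p under 0.05, and miR-16 was at 0.05 and −0.19. The 12 h median turned negative under the 4 other scalings (−0.68 to −0.13). Without scaling 4 of the 4 were called lower at 24 h in the knockout, where 35 of the 82 were. For the 12 h difference of responses 2 of the 4 were called higher, with a median of 0.96, against 22.0% of the 82 called and a median of 0.49. The values of miR-103 and miR-107, −0.61 and −0.80, lay on the same side as the median of the 4 at 12 h in the wild type, and nearer to 0.

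Of 38 listed miRNAs that also lie in introns of protein-coding genes, 36 were on the array and 19 were tested. Of these, 13 were well above background on all 12 arrays and are described here. The 13 are not all separate introns: for example, miR-140 and miR-140* are arms of the same hairpin, and miR-25, miR-93 and miR-106b share a cluster. miR-15b is also among the 4 relatives above. miR-455, not well above background on 9 arrays, enters no count or median. In the knockout miR-455 was called lower at both times (−1.23, limma adjusted p = 3.88e-05), with its tunicamycin values against the floor. At 12 h in the wild type 7 of 13 were called lower and 0 higher, with a median of −0.74, against 32.9% of the 82 called and a median of −0.34. Under the 4 other scalings the median was −0.93 to −0.45, with 5 of 13 called lower without scaling and 0 under the other 3. miR-342-3p, from an intron of Evl, fell by 1.61 ± 0.36 (limma adjusted p = 0.0153). miR-26a, from introns of the Ctdsp phosphatase genes, fell by 1.21 ± 0.15 (limma adjusted p = 0.00213). miR-106b, from an intron of the replication helicase gene Mcm7, fell by 0.97 ± 0.16 (limma adjusted p = 0.00552). At 24 h 4 of 13 were called lower (median −0.58), against 9.76% of the 82 called and a median of −0.18. In the knockout limma called 0 of 13 at both times, with 2 at an unadjusted p under 0.05 each time. Their medians were 0.18 and 0.08, against 0.09 and 0.23 for the 82, and were negative under the 4 other scalings (−0.58 to −0.03 at 12 h, −1.03 to −0.17 at 24 h). Without scaling 6 of 13 were called lower at 24 h in the knockout, where 42.7% of the 82 were. For the 12 h difference of responses 5 of 13 were called higher and 0 lower, with a median of 0.93, against 22.0% of the 82 called and a median of 0.49. Under the 4 other scalings that median was 0.06 to 0.44. miR-103 and miR-107, at 0.60 and 0.90 there, were below it.

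The start regions of the host genes were searched for TGATGNAA, the core of the composite element that ATF4 binds with C/EBP partners, on both strands. The 6 windows of Pank1, Pank2 and Pank3 in RefSeq's promoter table (250 bases before to 50 after a start, GRCm38.p6) held 0 matches. Of all 32851 windows of that length, 1304 (3.97%) held at least 1 match. The absence says only that these letters are not in these windows.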

How the data were processed

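Total RNA from 12 MEF cultures was labelled with Cy3 and hybridised to 1-colour Agilent miRNA arrays. Per the submitters' processing notes and the file headers, intensities were extracted with Agilent Feature Extraction 10.7.1.1. The deposited processed signal is background-subtracted intensity, not scaled between arrays. The deposited value table holds log2 of Agilent's total gene signal, unscaled (largest difference 1.16e-06, column medians 5.44 to 6.90). Non-uniformity and population outlier spots were left out, per the deposited 0 or 1 flags, spots of a probe were averaged, and probes of a miRNA were summed. Signals were divided by each array's 75th percentile over 82 miRNAs, floored at 0.0322 (log2 −4.96) and logged. limma 3.58.1 (R 4.3.3) fitted 6 group means with empirical Bayes (6 residual and 1.03 prior degrees of freedom) and was tested on simulated data. A miRNA was called well above background on an array where at least 50% of a probe's spots were. The number of arrays, 2 a group, limits the precision.

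Named were both miRNAs in every comparison, up to 4 others of each list with the largest tunicamycin difference, and the 3 most correlated miRNAs. The members, lists and tests were chosen with earlier results of these data known. Counts and medians of the lists are over members well above background on all 12 arrays, a limit set after seeing the data. The files hold no mean spot signal, so the planned normexp alternative used the median signal. Arrays were scanned on 4 days: untreated replicates 1 and 2 and tunicamycin replicates 1 and 2. Deviations of same-numbered arrays correlated at 0.68 (untreated, 1 pair) and 0.68 to 0.95 (tunicamycin, 6 pairs) but at −0.54 to −0.24 across treatments (8 pairs), so the number pairs arrays by scan day within a treatment only. Alternatives covered background, measure, scaling, floor, filter, weights, blocks and omitted arrays.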

Additional observations from a re-analysis of the deposited data

Results flagged for a closer look

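The response of mmu-miR-107 to 12 h of tunicamycin differed between the genotypes by 0.90 ± 0.19 on the log2 scale (knockout minus wild type, limma adjusted p = 0.018), and the difference itself was tested. The call was lost under each of the 4 other scalings: 0.40 without scaling, 0.41 with the median, 0.43 with quantiles and 0.02 with the percentile over all mouse miRNAs. The SEs were larger too, at 0.48, 0.4, 0.91 and 0.91 in that order. With normexp on all spots the sign turned (−0.28). With normexp leaving aside spots of outlying local background the sign was kept (0.60) and the call was lost. The call was kept in 12 of 21 alternative settings and 8 of 12 fits that left out 1 array.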

How the results depend on the processing

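Of the 22 differences, those of both miRNAs at 12 h in the wild type were the ones that kept their sign in all 20 alternatives and all 12 omissions of 1 array. Only changes of measure or scaling, and leaving out an array of the groups compared, could move these differences. The cause of the changes below was not tested. Comparisons are named by genotype and time against untreated cells, by genotype difference (knockout minus wild type), or as genotype-by-treatment (difference of responses). The normexp offset of 50 per spot exceeds the signal of the dimmer probes. With normexp (offset 50), miR-103 lost its call in wild-type 12 h (−0.22), and changed sign in wild-type 24 h (0.44), untreated genotype (0.45), 24 h genotype (−0.43), 12 h genotype-by-treatment (−0.32), 24 h genotype-by-treatment (−0.87) and knockout 24 against 12 h (0.11), while miR-107 lost its call in wild-type 12 h (−0.28), and changed sign in wild-type 24 h (0.41), knockout 12 h (−0.55), knockout 24 h (−0.41), untreated genotype (0.39), 24 h genotype (−0.43), 12 h genotype-by-treatment (−0.28), 24 h genotype-by-treatment (−0.82) and knockout 24 against 12 h (0.15). With the total gene signal, miR-103 lost its call in wild-type 12 h (−0.57), while miR-107 lost its call in wild-type 12 h (−0.76), wild-type 24 h (−0.65), untreated genotype (−0.52) and 12 h genotype-by-treatment (0.83), and changed sign in knockout 24 h (−0.06). A further setting took every miRNA, and so each array's percentile, from the brightest probe alone. There miR-103 lost its call in wild-type 12 h (−0.33), and changed sign in knockout 12 h (0.14), knockout 24 h (0.07) and 24 h genotype (−0.01). miR-107 changed sign there in 24 h genotype (−0.02). With the percentile of the main fit, the brighter probe of miR-103 gave −0.59 in wild-type 12 h and 0.04 in knockout 12 h. In the deposited table, miR-103 lost its call in wild-type 12 h (−0.78), and changed sign in untreated genotype (0.10) and wild-type 24 against 12 h (−0.42), while miR-107 lost its call in wild-type 12 h (−0.97), wild-type 24 h (−1.41), untreated genotype (−0.18) and 12 h genotype-by-treatment (0.41), and changed sign in knockout 12 h (−0.56), knockout 24 h (−1.10) and wild-type 24 against 12 h (−0.43). With normexp leaving aside spots whose local background was outlying, miR-103 lost its call in wild-type 12 h (−0.26), and changed sign in wild-type 24 h (0.05), knockout 12 h (0.20), knockout 24 h (0.31), 24 h genotype (−0.04) and knockout 24 against 12 h (0.11), while miR-107 lost its call in wild-type 12 h (−0.32), wild-type 24 h (0.00), untreated genotype (−0.44) and 12 h genotype-by-treatment (0.60), and changed sign in 24 h genotype (−0.02) and knockout 24 against 12 h (0.15). Under median scaling, miR-103 lost its call in wild-type 12 h (−0.32), and changed sign in untreated genotype (0.01), while miR-107 lost its call in wild-type 12 h (−0.51), wild-type 24 h (−0.50), untreated genotype (−0.27) and 12 h genotype-by-treatment (0.41), and changed sign in knockout 12 h (−0.10) and knockout 24 h (−0.20). Scaled over all mouse miRNAs, miR-103 lost its call in wild-type 12 h (−0.49), and changed sign in untreated genotype (0.24), 12 h genotype (−0.04), 24 h genotype (−0.48), 12 h genotype-by-treatment (−0.28) and 24 h genotype-by-treatment (−0.72), while miR-107 lost its call in wild-type 12 h (−0.68), wild-type 24 h (−0.36), untreated genotype (−0.03) and 12 h genotype-by-treatment (0.02), and changed sign in knockout 12 h (−0.66), knockout 24 h (−0.78), 12 h genotype (−0.01), 24 h genotype (−0.45) and 24 h genotype-by-treatment (−0.42). After quantile normalization, miR-103 lost its call in wild-type 12 h (−0.77), and changed sign in untreated genotype (0.01), 24 h genotype (−0.29) and 24 h genotype-by-treatment (−0.30), while miR-107 lost its call in wild-type 12 h (−0.97), wild-type 24 h (−0.70), untreated genotype (−0.25) and 12 h genotype-by-treatment (0.43), and changed sign in knockout 12 h (−0.54), knockout 24 h (−0.67) and 24 h genotype (−0.22). Without scaling, miR-103 lost its call in wild-type 12 h (−0.80), and gained a call in wild-type 24 h (−1.21) and knockout 24 h (−1.19), and changed sign in untreated genotype (0.09) and wild-type 24 against 12 h (−0.41), while miR-107 lost its call in wild-type 12 h (−0.99), untreated genotype (−0.19) and 12 h genotype-by-treatment (0.40), and changed sign in knockout 12 h (−0.59), knockout 24 h (−1.09, called) and wild-type 24 against 12 h (−0.42). At a floor 4 times lower, miR-103 lost its call in wild-type 12 h (−0.61), while miR-107 lost its call in wild-type 24 h (−0.59). At a floor 4 times higher, miR-103 lost its call in wild-type 12 h (−0.61). With no filter on dim miRNAs, miR-103 lost its call in wild-type 12 h (−0.61), while miR-107 lost its call in wild-type 24 h (−0.59), untreated genotype (−0.59) and 12 h genotype-by-treatment (0.90). With array weights, miR-103 gained a call in wild-type 24 h (−0.39), untreated genotype (−0.32) and 12 h genotype-by-treatment (0.60). Without all 4 tunicamycin arrays of replicate 2, miR-103 gained a call in wild-type 24 h (−0.25), untreated genotype (−0.32), 12 h genotype (0.19), 24 h genotype (0.14), 12 h genotype-by-treatment (0.50), 24 h genotype-by-treatment (0.46) and wild-type 24 against 12 h (0.34), and changed sign in knockout 24 h (0.21) and knockout 24 against 12 h (0.29), both called, while miR-107 gained a call in 24 h genotype-by-treatment (0.69), and changed sign in knockout 24 against 12 h (0.13). Without all 4 tunicamycin arrays of replicate 1, miR-103 gained a call in wild-type 24 h (−0.53), knockout 24 h (−0.30), untreated genotype (−0.32), 12 h genotype (0.38), 12 h genotype-by-treatment (0.70), 24 h genotype-by-treatment (0.23) and knockout 24 against 12 h (−0.37), and changed sign in knockout 12 h (0.07) and 24 h genotype (−0.09), while miR-107 gained a call in 12 h genotype (0.39) and 24 h genotype-by-treatment (0.59), and changed sign in knockout 24 h (−0.12) and 24 h genotype (0.00). Fitted on only the groups compared, miR-103 gained a call in untreated genotype (−0.32) and 12 h genotype-by-treatment (0.60), while miR-107 lost its call in wild-type 24 h (−0.59). Over the 82 always-detected miRNAs, miR-107 lost its call in wild-type 24 h (−0.59). With scan day as a random block, miR-107 gained a call in 24 h genotype-by-treatment (0.64). The within-array difference of the pair gained significance with normexp fitted without outlying spots (span 0.143, exact permutation p = 0.0327; range over the 6 alternatives 0.0327 to 0.752).

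Leaving out 1 array at a time gave, for miR-103, −0.63 to −0.59 (wild-type 12 h), −0.53 to −0.25 (wild-type 24 h), −0.09 to 0.07 (knockout 12 h), −0.30 to 0.21 (knockout 24 h), −0.32 to −0.31 (untreated genotype), −0.23 to 0.28 (24 h genotype), 0.53 to 0.68 (12 h genotype-by-treatment), 0.09 to 0.59 (24 h genotype-by-treatment) and −0.29 to 0.22 (knockout 24 against 12 h). For miR-107 it gave −0.71 to −0.47 (wild-type 24 h), −0.12 to 0.22 (knockout 24 h), −0.63 to −0.55 (untreated genotype), 0.25 to 0.38 (12 h genotype), −0.12 to 0.22 (24 h genotype), 0.84 to 0.97 (12 h genotype-by-treatment), 0.47 to 0.81 (24 h genotype-by-treatment) and −0.22 to 0.12 (knockout 24 against 12 h). The replicate number as a block changed no call of either miRNA: the wild-type 12 h differences stayed at −0.61 and −0.80 (limma adjusted p = 0.0323 and 0.00641) and the 12 h genotype-by-treatment value of miR-107 at 0.90. Crossing the numbers of the untreated arrays, normexp with outlying spots left aside, the dimmer probe for the within-array difference, and leaving out the tunicamycin arrays of 1 replicate were chosen after seeing the data. In the last, only untreated arrays supply the spread, and these settings gave the upper end of each range of called miRNAs below. Between untreated genotypes, array weights and fitting only the groups compared reached the same upper end. With the numbers crossed, limma called 45 miRNAs at 12 h in the wild type and 53 between untreated genotypes, against 51 and 54 with the block as labelled. Numbers of called miRNAs moved widely over the alternatives: 0 to 96 against 45 at 12 h in the wild type, 0 to 89 against 22 at 24 h, 0 to 61 against 1 and 0 to 82 against 3 in the knockout. Between genotypes they were 0 to 90 against 47 untreated, 0 to 70 against 36 at 12 h and 0 to 73 against 22 at 24 h. The differences of responses gave 0 to 74 against 33 and 0 to 71 against 12, and 24 against 12 h gave 0 to 48 and 0 to 76 against 0. The dimmer probes were near background on about as many arrays as they were above it, which limits them.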
